A study of Mus musculus with 20 samples.

Results

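The comparison described here is the addition of an antibody against VEGFA to olaparib plus immune checkpoint blockade, read in RNA from whole mouse ovarian tumours. It sets 4 tumours of the full combination (PARPi+ICB+anti-VEGFA) against 3 tumours of PARPi+ICB, which together are 7 of the 20 libraries of the study. Mice of the full combination received olaparib, a PARP inhibitor, by mouth at 40 mg/kg each day, and 2 intraperitoneal rounds of antibody each week, with 100 µg against CTLA-4, 200 µg against PD-L1 and 20 µg against VEGFA. Mice of PARPi+ICB received the same olaparib and the same antibodies against CTLA-4 and PD-L1, without the antibody against VEGFA. Both groups were female C57/BL6 mice that carried intraperitoneal tumours grown from a luciferase-expressing derivative of ID8, a mouse ovarian surface epithelial line, with the genotype Trp53-/-Brca1-/-. All tumours therefore trace to a single cell line; whether that derivative was 1 clone, the age of the mice, the duration of treatment and the anatomical site sampled are not given in the labels. The contrast was described across all expressed genes, and then for lists of 62 vessel, 15 hypoxia, 58 matrix and 185 immune genes, of which 58, 15, 58 and 180 had enough counts to be tested. A further 7 libraries, 4 of PARPi+anti-VEGFA and 3 of PARPi alone at the same doses, were used for a single comparison at the end.

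VEGFA is a secreted growth factor that binds VEGFR2 (the product of Kdr) on endothelial cells and makes them sprout, led by tip cells, while pericytes cover and steady the new tube. Cells short of oxygen stabilise HIF transcription factors, which switch on Vegfa together with genes of glycolysis and pH control, so vessel supply and hypoxia are coupled. VEGFA is also known to lower adhesion molecules on tumour endothelium and to impair dendritic cell maturation, which is the usual rationale for joining its blockade to checkpoint antibodies. The antibody binds the secreted protein, whereas the values here are transcript levels in bulk tissue, in which fewer cells of a type and less RNA per cell cannot be told apart.

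The full combination libraries held 27.4 to 32.3 M counted reads, and those of PARPi+ICB 31.2 to 34.7 M. Levels are given as CPM, a gene's counts scaled to a common total. Each library's total was first multiplied by a TMM factor (edgeR's scaling for library composition) estimated over all 20 libraries. In these 7 libraries the factors ran from 0.958 to 1.03. CPM compare 1 gene between tumours but not different genes, since they are not divided by length. The titles number each animal and nothing else says how the tumours were collected, so p-values measure the spread between these 7 samples. Wt1, a transcription factor of the ovarian and mesothelial surface, was at 848 to 968 CPM in the full combination and 862 to 928 CPM in PARPi+ICB. This level cannot tell ID8 cells from mesothelium of the host, so it is no check of the tumour label. Counts over whole genes do not read the deleted parts of Trp53 and Brca1 and so check nothing about the genotype; the log2 difference in Brca1 between the groups was -0.05 with a 95% interval of -0.50 to 0.40.

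Several tumours stood apart from the rest on lists of genes from other cells, as the plot of 6 such lists shows. The second full combination tumour carried pancreatic acinar RNA, with a mean of 7.84 log2 CPM over the acinar list, against -2.04 to -1.76 in the other 6 tumours, and Pnlip, the pancreatic lipase, at 1283 CPM against 6.05 to 9.06. The same tumour was highest for the erythroid list, at 3.16 log2 CPM. The second PARPi+ICB tumour had the highest level of the immediate early and heat shock list, 6.15 log2 CPM against 3.68 to 4.14 in the other 6. The third PARPi+ICB tumour was highest for the list of alternative activation and peritoneal macrophages, at 6.60 log2 CPM against 5.19 to 5.90. Adipocyte genes were highest in the first full combination tumour, at 2.80 log2 CPM. None of the 41 list levels separated the groups without overlap. The part of these tumours in the results was not tested apart from leaving each of them out, and values without them stand beside many of the results below; for 39 of the 106 named genes the sign of the difference changed under at least 1 alternative setting.

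**Figure D1:**
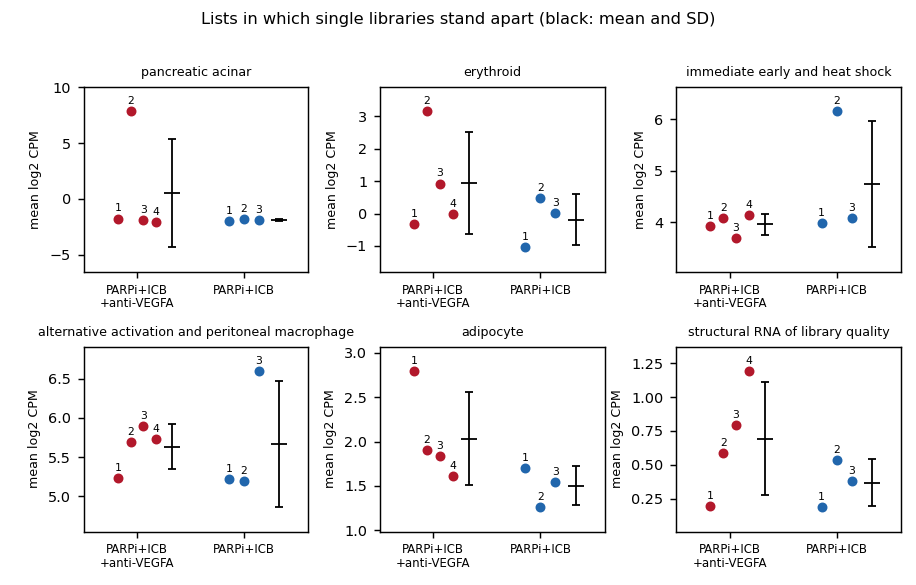
Mean level of 6 gene lists (vertical axes, mean log2 CPM) in each tumour of the full combination (left) and PARPi+ICB (right), with 1 numbered point per library and the group mean and SD in black. The second full combination tumour holds the highest acinar level (7.84) and the second PARPi+ICB tumour the highest heat shock level (6.15).

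No gene passed the test for the addition of anti-VEGFA. Of 17164 genes tested with edgeR's quasi-likelihood test, 0 had a Benjamini-Hochberg adjusted p under 0.05, and the smallest adjusted p was 0.457. At an unadjusted p under 0.05 there were 517 genes, 3.01% of those tested, of which 284 were higher and 233 lower in the full combination. DESeq2's Wald test called 5 genes and had 504 at an unadjusted p under 0.05; limma on the authors' log2 RPKM values called 0 of 10111 genes, with 252 unadjusted. The profile of a full combination tumour differed from that of a PARPi+ICB tumour by a root mean square of 0.540 log2 CPM on average, beside 0.566 between full combination tumours and 0.520 between PARPi+ICB tumours. All libraries of 1 group lay beyond all of the other for 676 genes, 3.94% of those tested.

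An unmet threshold does not show that a gene stayed the same, so the size of effect that the data leave possible was read from the 95% interval of each log2 difference. For 83.6% of all genes tested, the whole interval lay inside a 2-fold change in either direction, and for 67.1% inside a 1.5-fold change. When low genes were set aside, leaving 14748 whose average reached 1 CPM, the shares were 93.6% and 78.1%. The 2-fold bound held for 50 of 58 vessel genes, 14 of 15 hypoxia genes, 56 of 58 matrix genes and 142 of 180 immune genes, or 86.2%, 93.3%, 96.6% and 78.9%. The tighter 1.5-fold bound held for 31 vessel, 11 hypoxia, 43 matrix and 73 immune genes. The median half-width of the interval was 0.31 log2 units for matrix genes and 0.33 for hypoxia genes, beside 0.28 for all genes, 0.40 for vessel genes and 0.51 for immune genes. A 2-fold drop was outside the interval for 56 vessel and 165 immune genes, and a 2-fold increase for 51 vessel and 154 immune genes. Across alternative settings, the number of genes inside the 2-fold bound ranged over 44 to 54 vessel, 13 to 15 hypoxia, 52 to 58 matrix and 120 to 151 immune genes. These counts leave out DESeq2, limma on log2 RPKM and the fit without a filter on low counts. The highest vessel and immune counts came from the fit with the replicate number as a block. That fit takes the fourth full combination tumour out of the contrast.

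**Figure D2:**
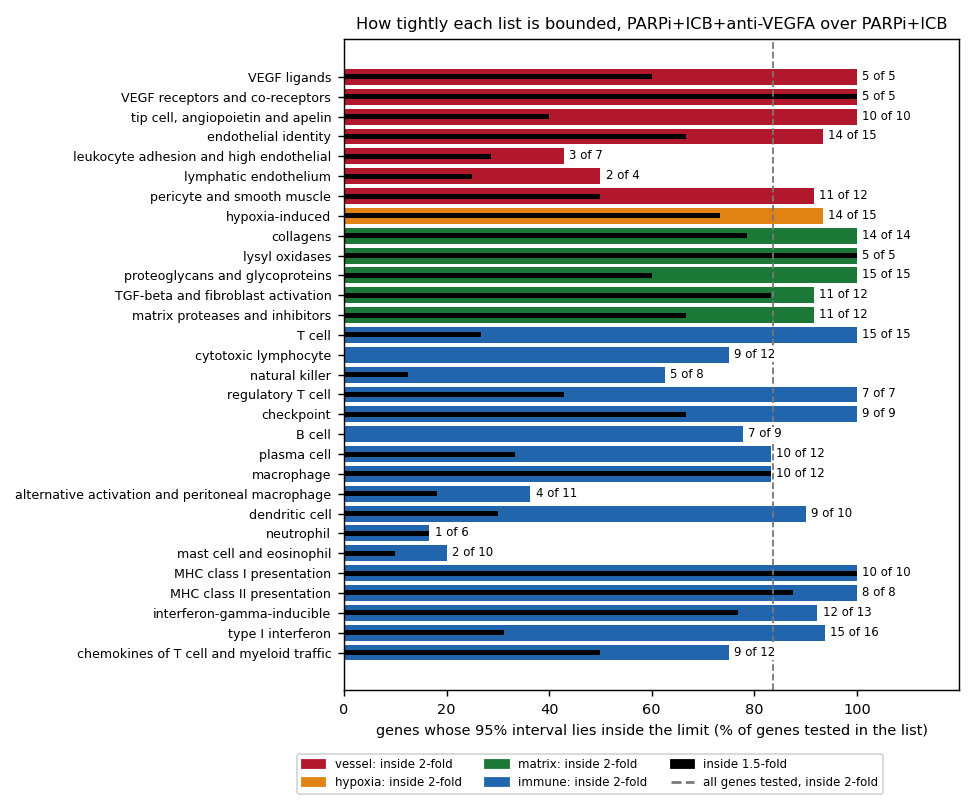
Percentage of each list's tested genes (horizontal axis) whose 95% interval for the full combination against PARPi+ICB lies inside a 2-fold or a 1.5-fold change, with 1 row per list. The dashed line is the 2-fold share over all genes tested, 83.6%. That share was 93.6% over genes whose average reached 1 CPM.

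Among vessel genes, none of the 5 VEGF ligands passed the test, and 3 of them were inside a 1.5-fold change. Vegfa itself, the antibody's target at the protein level, was at 294, 326, 284 and 484 CPM in the full combination and 315, 525 and 336 CPM in PARPi+ICB. The groups overlapped, with the fourth full combination tumour and the second PARPi+ICB tumour high. The log2 difference was -0.17 ± 0.23 (SE; 95% interval -0.69 to 0.35). Without the second PARPi+ICB tumour, the one with the high heat shock genes, it was 0.10. Vegfb and Vegfc, the ligands of VEGFR1 and of lymphatic VEGFR3, had intervals of -0.20 to 0.24 and -0.26 to 0.31. Pgf, a VEGFR1 ligand that can take part in escape from VEGFA blockade, was low, at 2.89 to 5.86 CPM in the full combination and 4.03 to 7.47 CPM in PARPi+ICB, and its interval of -0.95 to 0.33 left a loss of nearly 2-fold possible.

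The receptors were bounded most tightly among the vessel lists, with all 5 inside a 1.5-fold change. Kdr, the main signalling receptor for VEGFA, was at 32.5, 31.4, 39.6 and 32.1 CPM in the full combination and 28.6, 28.3 and 29.6 CPM in PARPi+ICB. Every full combination tumour lay above every PARPi+ICB tumour. The log2 difference was 0.24 ± 0.09 (95% interval 0.04 to 0.44), with an unadjusted p of 0.0242 and an edgeR adjusted p of 1.00; over the alternatives the adjusted p ran from 0.836 to 1.00 and the unadjusted p from 0.0157 to 0.0620. Flt4, which encodes VEGFR3 of lymphatic and sprouting endothelium, was also without overlap, at 162, 148, 149.6 and 159 CPM in the full combination and 142, 133 and 142 CPM in PARPi+ICB. Its log2 difference was 0.16 ± 0.06 (95% interval 0.01 to 0.30), with an unadjusted edgeR p of 0.0344. Over the alternatives its unadjusted p ran from 0.0192 to 0.142, and its adjusted p was never below 0.902. The Flt4 interval included 0 when any PARPi+ICB tumour was left out, at -0.05 to 0.31 without the second. Kdr and Flt4 were 3.45% of the 58 vessel genes, beside 1.84% of all genes tested whose full combination libraries lay above every PARPi+ICB library. Flt1, the decoy-like receptor VEGFR1, had an interval of -0.40 to 0.18, and the co-receptors Nrp1 and Nrp2 of -0.35 to 0.01 and -0.26 to 0.28.

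Genes of tip cells and of endothelial identity had small positive medians of 0.11 each, with 7 of 10 and 12 of 15 genes higher in the full combination, beside 8851 of 17164 for all genes and a median of 0.00. Without the first PARPi+ICB tumour the medians were 0.02 and 0.06, with 5 of 10 and 9 of 15 higher, and without the second they were 0.21 and 0.19; without the fourth full combination tumour they were 0.02 and 0.06. None of these genes reached an unadjusted p under 0.05. Pecam1, an adhesion protein on all endothelium, had an interval of -0.04 to 0.26, Cdh5, the junction cadherin, of -0.28 to 0.56, and Emcn of capillaries and veins of -0.33 to 0.21. The sprouting genes were more variable: Angpt2, which loosens pericytes from the vessel wall, was at 6.07, 9.30, 9.83 and 18.7 CPM in the full combination and 6.83, 17.8 and 8.23 CPM in PARPi+ICB. Each group held 1 tumour at about the same high level. Its interval of -0.94 to 0.96 stopped just short of a 2-fold change either way. Dll4, the Notch ligand of tip cells, had an interval of -0.28 to 0.52, and Esm1, a proteoglycan that marks VEGFA-stimulated tip cells, of -0.87 to 0.74.

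Pericyte and smooth muscle genes were higher in 11 of 12 cases, with a median of 0.12, and all but 1 were inside a 2-fold change. Without the second full combination tumour 8 of 12 were higher and the median was 0.02, and over all alternatives it ran from 0.02 to 0.24. Pdgfrb, the receptor through which endothelium recruits pericytes, was at 70.5, 109, 89.7 and 95.7 CPM in the full combination and 66.7, 79.2 and 68.3 CPM in PARPi+ICB. Only the first full combination tumour fell within the range of PARPi+ICB. The log2 difference was 0.36 ± 0.14 (95% interval 0.04 to 0.68), with an unadjusted p of 0.0309 and an edgeR adjusted p of 1.00; over the alternatives the adjusted p ran from 0.836 to 1.00 and the unadjusted p from 0.00214 to 0.0993. Rgs5, another pericyte marker, had an interval of -0.06 to 0.75. With Kdr and Flt4, Pdgfrb made 3 vessel genes at an unadjusted p under 0.05, all higher in the full combination, beside 1.65% of all genes in that direction. The second full combination tumour, with acinar and erythroid RNA, was highest for 19 of 58 vessel genes, and the first was lowest for 21.

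Genes for leukocyte adhesion to vessels were less tightly bounded. All 7 tested were higher in the full combination, with a median of 0.37, and only 3 were inside a 2-fold change. Without the second PARPi+ICB tumour the median was 0.16 with 6 of 7 higher, and without the first it was 0.23. Vcam1 and Icam1, the abundant members, had intervals of -0.11 to 0.37 and -0.10 to 0.34. Selp, the platelet and endothelial selectin, was at 5.58, 12.4, 11.9 and 11.9 CPM in the full combination and 4.80, 4.63 and 14.9 CPM in PARPi+ICB. The third PARPi+ICB tumour lay above all of the full combination and the other 2 below it, and the interval was -0.63 to 1.37. Lymphatic markers were lower in all 4 tested genes, with a median of -0.13, but the median was 0.03 with 2 of 4 lower without the third PARPi+ICB tumour, and 2 of 4 were lower without the fourth full combination tumour. Lyve1, the hyaluronan receptor, had an interval of -0.84 to 0.75 around -0.05, and its log2 difference was 0.48 without the third PARPi+ICB tumour. Pdpn, also made by fibroblasts and mesothelium, had an interval of -0.14 to 0.13. The lymphatic identity factor Prox1 was below 1 CPM in every tumour, and its interval of -1.85 to 1.12 set no close bound.

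**Figure D3:**
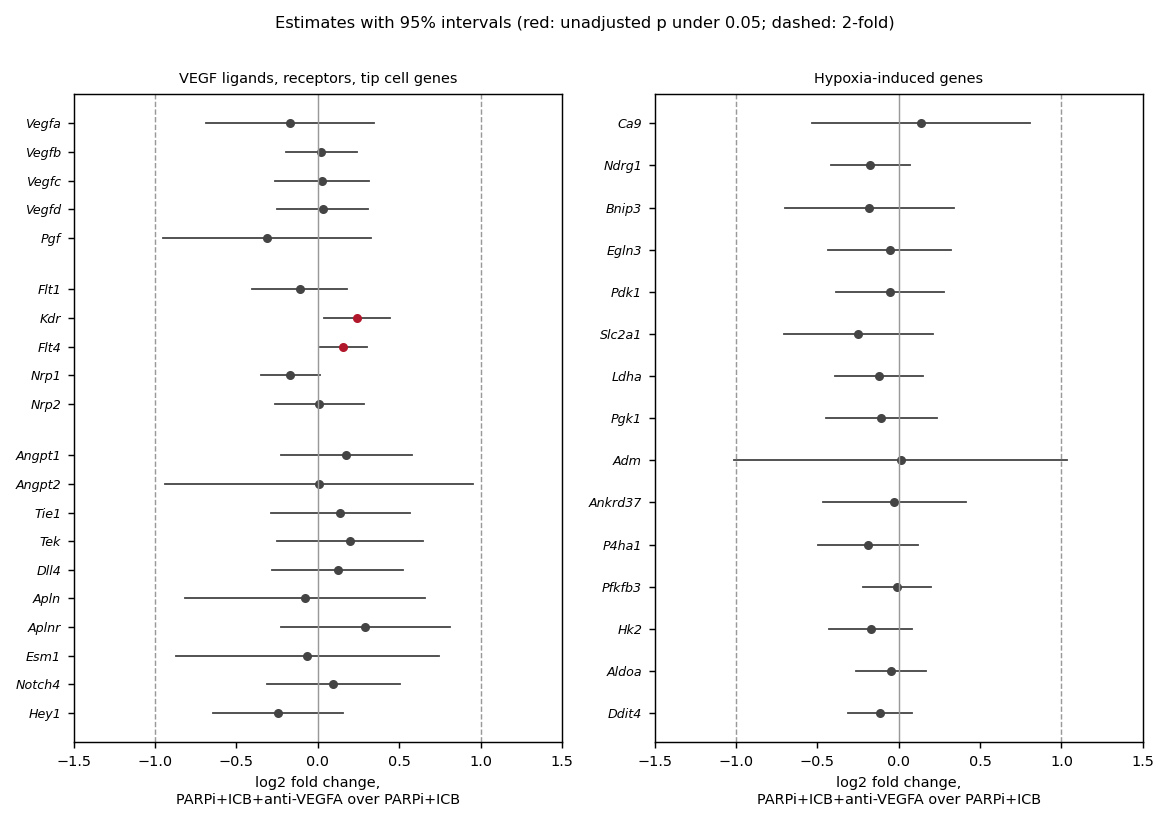
Log2 difference of the full combination over PARPi+ICB (horizontal axis) with its 95% interval for VEGF ligands, receptors and tip cell genes and for 15 hypoxia genes. The intervals of Kdr (0.04 to 0.44) and Flt4 (0.01 to 0.30) do not cross 0.

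Genes induced by hypoxia were bounded within 2-fold in 14 of 15 cases, and none reached an unadjusted p under 0.05. Their usual response element holds the core ACGTG, and the windows from 250 bases before to 50 after the start of 3 of these genes are shown because they let the element be seen beside the RNA values of well-known targets; the core on either strand (ACGTG or CACGT) is in capitals. The strings are the plus strand of GRCm38.p6, taken from RefSeq, at chr7:46845554-46845853 for Ldha, chrX:106186850-106187149 for Pgk1 and chr4:119108495-119108794 for Slc2a1.
Ldha: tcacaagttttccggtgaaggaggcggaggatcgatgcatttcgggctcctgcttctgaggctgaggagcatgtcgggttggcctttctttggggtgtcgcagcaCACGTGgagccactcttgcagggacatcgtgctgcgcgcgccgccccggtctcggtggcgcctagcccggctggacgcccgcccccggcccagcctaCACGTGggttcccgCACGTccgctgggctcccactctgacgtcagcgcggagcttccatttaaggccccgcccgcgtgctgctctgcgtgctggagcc
Pgk1: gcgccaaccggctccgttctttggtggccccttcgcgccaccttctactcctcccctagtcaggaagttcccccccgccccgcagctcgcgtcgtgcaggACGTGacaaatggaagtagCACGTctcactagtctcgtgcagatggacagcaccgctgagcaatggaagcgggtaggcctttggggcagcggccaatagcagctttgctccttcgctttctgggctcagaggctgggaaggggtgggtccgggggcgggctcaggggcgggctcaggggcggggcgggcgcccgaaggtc
Slc2a1: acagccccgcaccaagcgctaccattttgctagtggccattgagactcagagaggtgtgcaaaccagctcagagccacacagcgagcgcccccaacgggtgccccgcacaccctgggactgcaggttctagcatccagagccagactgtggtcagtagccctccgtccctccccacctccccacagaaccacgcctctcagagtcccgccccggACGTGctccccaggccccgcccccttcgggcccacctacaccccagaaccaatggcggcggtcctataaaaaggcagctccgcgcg
The core was found in 13 of 18 windows of the hypoxia list, 72.2%, and in 19.6% of all 32851 promoter windows. Some genes have several windows, and those of Aldoa overlap in part. By gene, 11 of the 13 with a window held the core, and Adm and Pdk1 did not. Ca9 and Ndrg1 had no window. A match describes the letters and is no evidence of binding here.

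Ldha, the lactate dehydrogenase subunit of glycolysis, was at 459, 419, 321 and 414 CPM in the full combination and 415, 472 and 434 CPM in PARPi+ICB. The ranges overlapped in part, with the lowest value in the full combination and the highest in PARPi+ICB, and the log2 difference was -0.12 ± 0.12 (95% interval -0.39 to 0.15). Pgk1, the phosphoglycerate kinase, had an interval of -0.45 to 0.24. Slc2a1, the glucose transporter GLUT1, was at 38.9, 40.8, 32.9 and 47.9 CPM in the full combination and 36.7, 65.6 and 41.2 CPM in PARPi+ICB. Its second PARPi+ICB value lay far above the rest. The interval was -0.71 to 0.21, so a 1.5-fold loss of GLUT1 remained within it but a 2-fold loss did not; without that tumour the log2 difference was 0.05 (-0.28 to 0.38). Ndrg1, a stress protein that accumulates in low oxygen, was at 508, 485, 434 and 524 CPM in the full combination and 528, 639.9 and 489.8 CPM in PARPi+ICB, with an interval of -0.42 to 0.07. Ca9, the carbonic anhydrase that exports acid, had an interval of -0.53 to 0.80. Adm, the vasodilator peptide adrenomedullin, was at 1.65 to 4.17 CPM in the full combination and 1.52 to 4.26 CPM in PARPi+ICB and was the member outside the 2-fold bound, at -1.01 to 1.03. The oxygen-sensing factors themselves were bounded closely, Hif1a at -0.26 to 0.13 and Epas1 at -0.22 to 0.22.

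Of the 15 hypoxia genes, 13 were lower in the full combination, with a median of -0.11, but this lean depended on single tumours. Without the second full combination tumour the median was -0.06 with 9 lower, and without the third it was -0.03 with 12 lower. The second PARPi+ICB library was the highest of the 7 for 9 of the 15 genes. Without it the median was 0.02 and 6 of 15 were lower. The same tumour held the high heat shock and immediate early genes: Atf3, a stress-induced transcription factor, was at 7.62 to 10.6 CPM in the full combination and at 7.79, 49.8 and 11.0 CPM in PARPi+ICB. The part of those genes in the hypoxia values was not tested beyond leaving the tumour out.

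Matrix genes were the most closely bounded of the 4 classes. The fibrillar collagens, which give tumour stroma its tensile strength, were close in both groups: Col3a1 was at 1969, 2230.1, 1737 and 1934 CPM in the full combination and 1758, 1991 and 1984 CPM in PARPi+ICB. The groups overlapped, and the log2 difference was 0.05 ± 0.10 (95% interval -0.18 to 0.27). Col1a1 and Col1a2 had intervals of -0.23 to 0.49 and -0.26 to 0.37, and Col4a1 of the vessel basement membrane of -0.32 to 0.42. All 14 collagens were inside a 2-fold change and 11 inside a 1.5-fold change. Col14a1, a collagen that organises fibrils, was the 1 matrix gene of 58 without overlap (1.72%, beside 1.84% of all genes tested above), at 33.7, 49.3, 33.8 and 33.0 CPM in the full combination and 31.3, 28.9 and 30.3 CPM in PARPi+ICB. The second full combination tumour, with the acinar RNA, was the highest, and the interval was -0.02 to 0.65.

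All 5 lysyl oxidases, which crosslink collagen and elastin, were inside a 1.5-fold change. Lox was at 96.4, 101, 102 and 107 CPM in the full combination and 86.6, 116 and 133 CPM in PARPi+ICB, so that all 4 values of the full combination lay within the PARPi+ICB range. Its interval was -0.42 to 0.15, and that of Loxl2 was -0.34 to 0.32. Among proteoglycans and glycoproteins, 15 of 15 were inside a 2-fold change. Lum, a small proteoglycan that spaces collagen fibrils, was at 71.7, 74.9, 93.3 and 76.9 CPM in the full combination and 50.8, 62.2 and 74.4 CPM in PARPi+ICB. The third PARPi+ICB tumour overlapped the full combination. Its log2 difference of 0.35 ± 0.13 (95% interval 0.05 to 0.65) was the only 1 among matrix genes at an unadjusted p under 0.05 (0.0285), and its edgeR adjusted p was 1.00, with 0.534 to 1.00 over the alternatives. Dcn, its relative decorin, had an interval of -0.04 to 0.49, Vcan, the large proteoglycan versican, of -0.39 to 0.14, and Fbn1 of elastic microfibrils of -0.21 to 0.10.

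The fibroblast activation and protease lists each had a median of 0.05, which ran from -0.02 to 0.08 and -0.02 to 0.10 over the alternatives, and each had 11 of 12 genes inside 2-fold. Tgfb1, the cytokine that drives fibroblast activation, had an interval of -0.43 to 0.12. Adamts1, a protease that cleaves versican, was the member of the protease list outside the bound. It was at 33.2, 34.7, 26.5 and 39.9 CPM in the full combination and 34.8, 69.5 and 40.5 CPM in PARPi+ICB. The second PARPi+ICB tumour was the highest, and the log2 difference of -0.52 ± 0.23 (95% interval -1.04 to 0.01) was -0.16 without it.

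Immune genes had a median of 0.08, with 132 of 180 higher in the full combination. This lean also rested on single tumours: without the second PARPi+ICB tumour, which was lowest for 78 of the 180 genes, the median was -0.02 and 95 were lower, and without the third it was 0.22. At an unadjusted p under 0.05 there were 4 immune genes higher and 2 lower of 180, beside 1.65% of all genes tested higher and 1.36% lower. The list levels by tumour show the 2 groups interleaved.

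**Figure D4:**
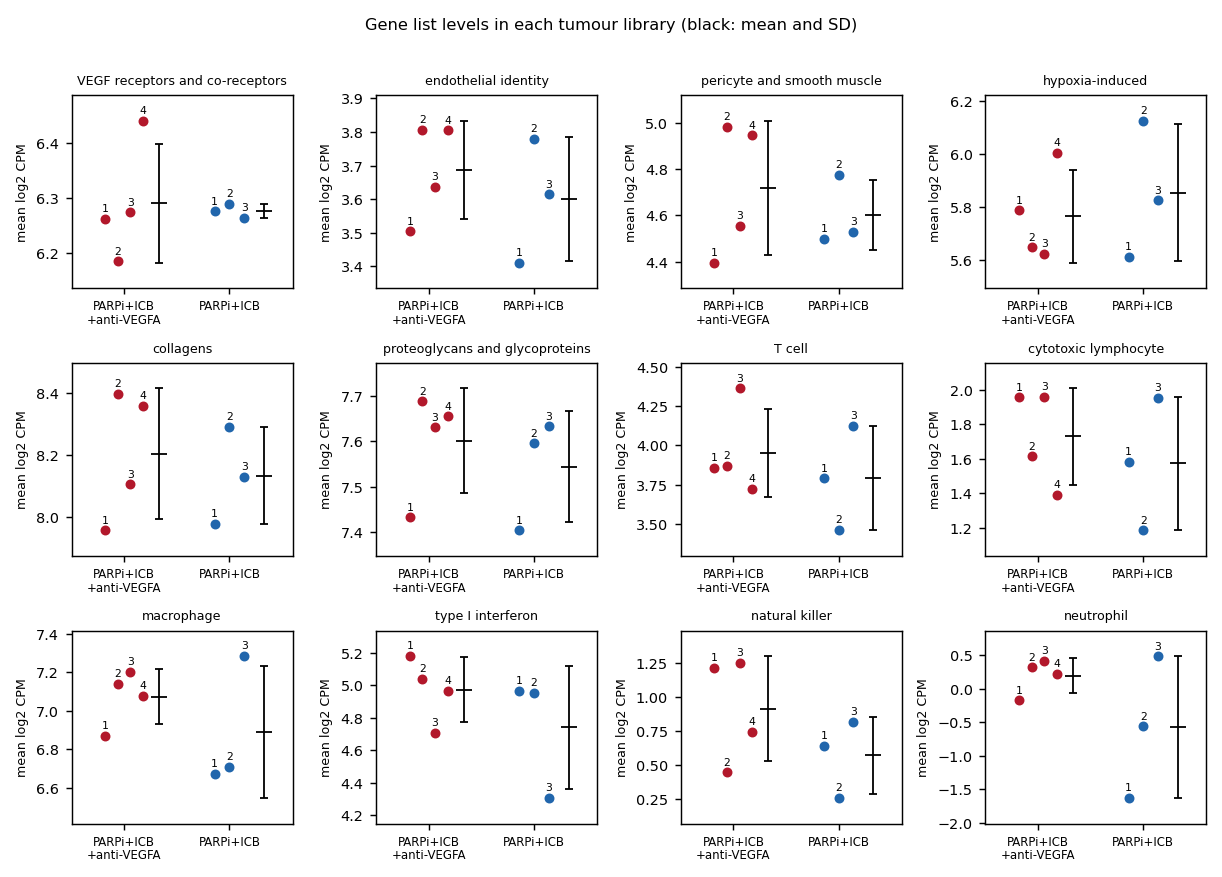
Mean log2 CPM (vertical axes) of 12 gene lists in each tumour, with the full combination left of PARPi+ICB, 1 numbered point per library and the group mean and SD in black. The groups overlap in every panel.

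All 15 T cell genes were inside a 2-fold change, though only 4 were inside 1.5-fold, and 14 were higher in the full combination with a median of 0.15. That median was 0.00 without the second PARPi+ICB tumour and -0.04 without the third full combination tumour. Cd8a, the co-receptor of cytotoxic T cells, was at 19.8, 13.6, 15.0 and 11.6 CPM in the full combination and 13.7, 10.2 and 17.8 CPM in PARPi+ICB. The groups overlapped, and the log2 difference was 0.11 ± 0.22 (95% interval -0.38 to 0.61), or -0.07 without the second PARPi+ICB tumour. Cd3e of the T cell receptor complex had an interval of -0.15 to 0.92 and Cd4, the helper co-receptor, of -0.36 to 0.59. Cytotoxic effectors were bounded less well, with 9 of 12 inside 2-fold and 0 inside 1.5-fold: Gzmb, a killing protease, had an interval of -0.23 to 0.87, Prf1, the pore protein perforin, of -0.98 to 1.17, and Ifng, the main T helper cytokine of macrophage activation, of -1.35 to 0.87. A 2-fold gain of perforin and a 2-fold loss of Ifng therefore both lay within what these tumours allow.

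The natural killer list was higher in all 8 genes, with a median of 0.40 and a range of 0.28 to 0.55 over the alternatives; 5 of 8 were higher without the second PARPi+ICB tumour and 6 of 8 without the first full combination tumour. Klre1, a lectin-like receptor of natural killer cells, was at 2.34, 1.89, 2.30 and 1.83 CPM in the full combination and 1.40, 1.33 and 1.79 CPM in PARPi+ICB. The groups did not overlap, by a small margin, and the log2 difference was 0.48 ± 0.21 (95% interval 0.01 to 0.95). Ncr1, the activating receptor NKp46, had an interval of -0.16 to 1.76, and Klrb1c, the NK1.1 antigen of this strain, of -0.77 to 0.92. None of the 8 passed the adjusted threshold in edgeR, and only Klre1 had an unadjusted p under 0.05 (0.0460).

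Regulatory T cell and checkpoint genes, which include both targets of the checkpoint antibodies, were all inside a 2-fold change, in 7 of 7 and 9 of 9 cases. Foxp3, which defines regulatory T cells, had an interval of -0.37 to 0.64 and Ctla4 of -0.24 to 0.75. Cd274, which encodes PD-L1, was at 62.2, 39.7, 63.7 and 47.3 CPM in the full combination and 55.4, 48.8 and 56.6 CPM in PARPi+ICB. The full combination spread to both sides of PARPi+ICB, and the interval was -0.35 to 0.34. The exhaustion-associated receptors Pdcd1 and Lag3 had intervals of -0.47 to 0.54 and -0.34 to 0.34.

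B cell and plasma cell genes had medians of 0.05 and -0.08, and none reached an unadjusted p under 0.05. The B cell median was -0.18 without the second PARPi+ICB tumour, -0.23 without the third full combination tumour and 0.32 without the third PARPi+ICB tumour. The plasma cell median ran from -0.32 without the third full combination tumour to -0.01 without the second. Ighm, the heavy chain of IgM, was at 12180.3, 13025, 6109 and 6275 CPM in the full combination and 9196, 13196 and 19225 CPM in PARPi+ICB, with an interval of -1.31 to 0.20. Genes that the annotation classes as immunoglobulin, constant genes as well as variable segments, were frequent at the head of the ranking. They held 19 of the 100 smallest edgeR p-values, and 41 of 191 tested had an unadjusted p under 0.05, beside 3.01% of all genes. Variable segments were not counted apart from the rest. Igkv14-100, the gene with the smallest edgeR adjusted p (0.457; 1 segment of the kappa light chain), was at 9.83, 4.24, 5.76 and 3.17 CPM in the full combination and 118, 567 and 99.6 CPM in PARPi+ICB. No library overlapped, and the log2 difference was -5.50 ± 0.70. Ighv1-75, a heavy chain segment, went the other way, at 27.6, 38.2, 169 and 123 CPM in the full combination and 5.87, 5.25 and 11.8 CPM in PARPi+ICB, with a log2 difference of 3.56 ± 0.68. A B cell clone uses a single variable segment for each chain, and near-identical segments can share reads, so these values are uncertain.

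The macrophage list was inside 2-fold in 10 of 12 genes, and inside 1.5-fold in the same number. Csf1r, the receptor that macrophages need for survival, had an interval of -0.29 to 0.46. Cd163, a haemoglobin scavenger receptor of tissue-resident macrophages, was at 8.50, 6.77, 8.28 and 5.52 CPM in the full combination and 2.99, 4.20 and 5.55 CPM in PARPi+ICB. The fourth full combination tumour lay just below the third of PARPi+ICB, and the others were higher. The log2 difference was 0.78 ± 0.24 (95% interval 0.25 to 1.32), with an unadjusted p of 0.00915 and an edgeR adjusted p of 1.00; the adjusted p ran from 0.525 to 1.00 over the alternatives, and the log2 difference stayed between 0.58 and 1.02. Marco, a scavenger receptor for bacteria and particles, was at 7.78, 28.4, 19.6 and 37.5 CPM in the full combination and 10.4, 9.63 and 16.1 CPM in PARPi+ICB, with an interval of -0.05 to 1.98.

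The list of alternative activation and peritoneal macrophages was bounded in 4 of 11 genes, and its leading members were high in 1 tumour. Chil3, a chitinase-like protein of alternatively activated macrophages, was at 97.0, 123, 160.0 and 86.2 CPM in the full combination and 78.5, 69.0 and 477 CPM in PARPi+ICB. The third PARPi+ICB tumour was the highest and the other 2 were below every full combination tumour. The log2 difference of -0.83 (95% interval -2.21 to 0.55) became 0.66 (0.14 to 1.19) without that tumour. Arg1, the arginase that depletes arginine from T cells, was at 62.5, 60.1, 83.8 and 100.1 CPM in the full combination and 44.3, 87.0 and 229.8 CPM in PARPi+ICB, with a log2 difference of -0.65, or 0.23 without the same tumour. Without that tumour 9 of the 11 genes were higher and the list's median was 0.57, against -0.22 with all 7. Il4ra, the receptor for the cytokines of this programme, was at 162, 188, 153 and 167 CPM in the full combination and 175, 213 and 209.7 CPM in PARPi+ICB. The groups overlapped, and the log2 difference was -0.24 ± 0.10 (unadjusted p 0.0366).

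Dendritic cell genes were inside 2-fold in 9 of 10 cases, with a median of 0.21 (0.07 to 0.37 over the alternatives) and 8 of 10 higher; Xcr1, the chemokine receptor of cross-presenting dendritic cells, had an interval of -0.12 to 0.73. Granulocyte lists were bounded more on the side of a drop. Inside 2-fold both ways were 1 of 6 tested neutrophil genes and 2 of 10 mast cell and eosinophil genes. A 2-fold drop was outside the interval for 5 and 7 of them, and a 2-fold increase for 1 and 3. The neutrophil median was 0.60 (0.19 to 1.42 over the alternatives), with 5 of 6 higher. The mast cell and eosinophil median was 0.33 (0.09 to 0.43), with 9 of 10 higher. Ngp, a neutrophil granule protein, was at 1.98, 4.14, 2.91 and 3.28 CPM in the full combination and 0, 1.30 and 1.85 CPM in PARPi+ICB, where the count of 0 allows up to 0.0872 CPM, for counting error only. The groups did not overlap, and the fitted interval was -0.21 to 3.35. S100a8, a subunit of calprotectin, had an interval of -0.38 to 1.69.

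Antigen presentation was the best bounded immune function. All 10 MHC class I genes were inside a 1.5-fold change, and 7 of 8 class II genes. H2-K1, a classical class I heavy chain, was at 1813, 1375, 1630.5 and 1384 CPM in the full combination and 1456, 1378 and 1769.9 CPM in PARPi+ICB, and its interval was -0.26 to 0.30. The groups covered the same range. Cd74, the invariant chain of class II, had an interval of -0.28 to 0.35. Targets of interferon gamma were inside 2-fold in 12 of 13 tested genes, with Irf1, a transcription factor of this response, at -0.16 to 0.30.

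Genes induced by type I interferon were all higher in the full combination, 16 of 16, with a median of 0.21, and 15 were inside 2-fold. Without the third PARPi+ICB tumour, which was lowest for the list at 4.31 log2 CPM, 8 of 16 were higher. Ifih1, the RNA sensor MDA5, was at 57.7, 47.4, 50.8 and 54.7 CPM in the full combination and 47.1, 45.8 and 41.7 CPM in PARPi+ICB. The groups did not overlap, though the second full combination tumour lay barely above the first of PARPi+ICB, and the log2 difference was 0.24 ± 0.08 (95% interval 0.05 to 0.42; unadjusted p 0.0191). Isg15, a ubiquitin-like effector, had an interval of -0.27 to 0.78.

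Chemokines were inside 2-fold in 9 of 12 tested genes. Cxcl9 and Cxcl10, which draw CXCR3-bearing T cells and are counted with the interferon gamma targets, had intervals of -0.28 to 0.77 and -0.22 to 0.54, and Ccl5 of -0.17 to 0.86. Cxcl2, which draws neutrophils, was at 0.292, 0.463, 0.259 and 0.414 CPM in the full combination and 0.494, 1.36 and 0.760 CPM in PARPi+ICB. All full combination tumours lay below all of PARPi+ICB. The log2 difference was -1.28 ± 0.41 (95% interval -2.21 to -0.34; unadjusted p 0.0133), and -0.80 with an unadjusted p of 0.0921 without the second PARPi+ICB tumour. Cxcl12, a stromal chemokine that retains lymphocytes and myeloid cells, had a log2 difference of 0.26 ± 0.10 with an interval of 0.03 to 0.50. The 4 immune genes without overlap, Klre1, Ngp and Ifih1 above and Cxcl2 below, were 2.22% of the 180; over all genes tested 1.84% lay above and 2.1% below.

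Over all genes, the smallest unadjusted p-values among genes of at least 1 CPM, leaving out antibody segments, ran from 0.000335 to 0.00926. Ctsk, the collagen-degrading cathepsin K, averaged 18.6 ± 0.98 CPM in the full combination (SD, n = 4) and 13.5 ± 0.42 CPM in PARPi+ICB (SD, n = 3). The groups were apart with little spread inside either, and the log2 difference was 0.47 ± 0.08. It was the only gene other than antibody segments among the 5 that DESeq2 called (adjusted p 0.0371); its adjusted p in edgeR was 1.00, and over the other settings it ran from 0.592 to 1.00. The next genes higher in the full combination were Sept4, a septin (0.49), Wnt2b, a Wnt ligand (0.99), Coch, a secreted matrix protein (1.26), Spats2l (0.66), Rad51c, a recombination repair factor (0.67), Rundc3a (0.83), Nr2f2, the COUP-TFII factor of venous endothelium and stroma (0.30), Cd163 and Clca3a2 (0.40), given as log2 differences. Those lower were Mme, the peptidase neprilysin (-0.39), Dcbld2, a receptor of the neuropilin-like family (-0.39), Hepacam (-0.55), Trim2 (-0.32), Syt13 (-0.66), Faim2 (-0.46), Cebpd, an acute-phase transcription factor (-0.77), Frem3 (-0.51), Myl6b (-0.33) and Amigo2 (-0.24). None of these passed edgeR's adjusted threshold.

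Whether anti-VEGFA acted differently with and without checkpoint blockade was tested in 14 libraries, as the change in the full combination over PARPi+ICB minus the change in PARPi+anti-VEGFA over PARPi; these 2 changes share no library. Of 17834 genes tested with edgeR, 0 passed an adjusted p of 0.05 for the difference of changes, with 1154 (6.47%) at an unadjusted p under 0.05 and a smallest adjusted p of 0.448; DESeq2 called 29. Without checkpoint blockade, 85 genes passed in PARPi+anti-VEGFA over PARPi, 0.477% of those tested, of which 50 were higher and 35 lower. They included 1 of 58 vessel genes (Angpt1, a ligand that stabilises vessels) and 5 of 58 matrix genes (Lox, Vcan, Fbn1, Col3a1 and Mmp3, the stromelysin), all higher, and 0 hypoxia and 0 immune genes. These calls depended on single libraries: leaving out each in turn gave 0 to 232 genes, 0 without the second PARPi or the fourth PARPi+anti-VEGFA tumour, 232, 13 and 2 without PARPi+anti-VEGFA tumours 1, 2 and 3, and 5 and 16 without PARPi tumours 1 and 3, and leaving out the tumours with acinar RNA gave 1. The 6 named members were chosen because these same libraries called them higher, so their direction under other settings is no separate support. They were higher in every setting, and between 0 and 6 of them were called.

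Lox had the mean levels of 101 ± 4.14 CPM in the full combination, 112 ± 23.6 CPM in PARPi+ICB, 113 ± 26.2 CPM in PARPi+anti-VEGFA and 58.3 ± 1.57 CPM in PARPi (SD, n = 4, 3, 4 and 3). The 3 PARPi tumours lay below all others. The change with anti-VEGFA was -0.14 on the log2 scale with checkpoint blockade and 0.96 ± 0.16 without it (edgeR adjusted p 0.0395 for the change without it, and 0.0103 to 0.208 when single libraries were left out). The difference of these changes was -1.09 (95% interval -1.58 to -0.61), with an edgeR adjusted p of 0.448; over the alternatives it ran from 0.00252 with DESeq2 to 0.962. Fbn1 was likewise lowest in PARPi, at 223 CPM in the full combination, 232 CPM in PARPi+ICB, 228 CPM in PARPi+anti-VEGFA and 169 CPM in PARPi, and a difference of changes of -0.50 (95% interval -0.68 to -0.31). Vegfa averaged 347 ± 93.0 CPM in the full combination, 392 ± 116 CPM in PARPi+ICB, 574 ± 68.7 CPM in PARPi+anti-VEGFA and 586 ± 51.3 CPM in PARPi.

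Over the classes, the median change with anti-VEGFA in the presence of checkpoint blockade was 0.10 for vessel, -0.11 for hypoxia, 0.05 for matrix and 0.08 for immune genes. Without checkpoint blockade the medians in the same fit were 0.03, 0.11, 0.28 and 0.32. The difference of changes reached an unadjusted p under 0.05 for 5 vessel, 3 hypoxia, 14 matrix and 17 immune genes, negative in 3, 3, 13 and 17 of them, against 607 negative (3.4%) and 547 positive (3.07%) over all genes. Over all genes the median difference of changes was -0.0048. The class medians without checkpoint blockade and these class counts come from 1 fit and were not recomputed with libraries left out. It was inside 2-fold for 39 of 58 vessel, 11 of 15 hypoxia, 46 of 58 matrix and 95 of 180 immune genes, so this comparison was bounded less closely than the full combination against PARPi+ICB. Beside these values, 2 of the 4 PARPi+anti-VEGFA tumours carried pancreatic acinar RNA (5.54 and 5.47 log2 CPM over the acinar list). Their part in the difference was not tested beyond leaving them out for the number of genes called and for named genes. By the rule on the smallest p-values, the other genes leading the difference of changes were Svep1 (-1.02), Lama1, a basement membrane laminin (-1.20), and Serpina3n (-1.33) on the negative side, and Cfap20 (0.36), Crip3 (0.97), Phf13 (0.42) and Coro2b (0.40) on the positive side, with edgeR adjusted p-values of 0.448 to 0.611.

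**Figure D5:**
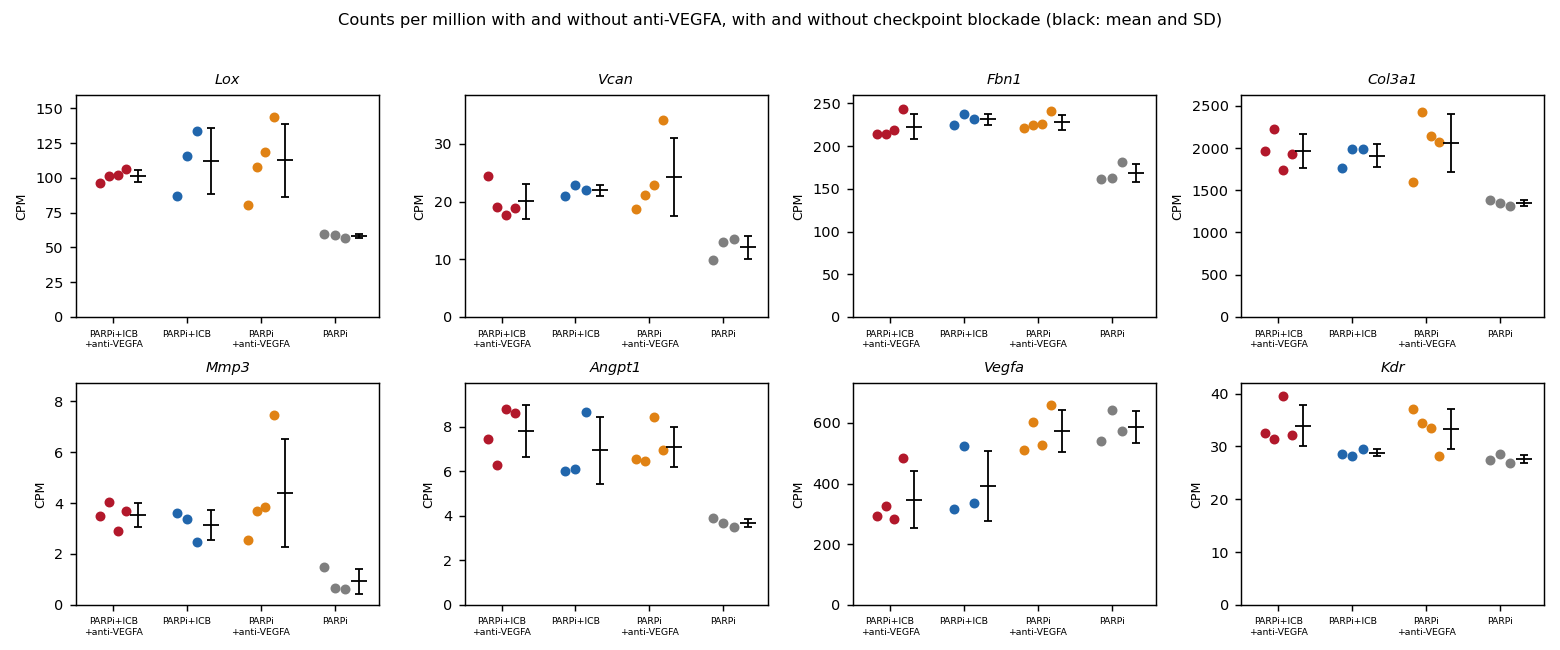
CPM (vertical axes, starting at 0) of 8 genes in the full combination, PARPi+ICB, PARPi+anti-VEGFA and PARPi, with 1 point per tumour and the group mean and SD in black. Lox, Vcan, Fbn1 and Col3a1 are lowest in the PARPi tumours, and the full combination overlaps PARPi+ICB in all but Kdr.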

How the data were processed

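RNA was total RNA from frozen tumour tissue, made into strand-specific whole-transcriptome libraries after removal of a class of RNA that the labels name cytoplasmic. Reads were aligned with STAR to GRCm38 and counted with HTSeq, per the submitters' processing notes; versions, annotation and strand setting are not given in the sources used here, so overlapping and antisense genes may share counts. The deposited tables hold raw counts per gene and log2 RPKM values that the authors computed from them. Of 55406 gene IDs, 55227 matched a symbol in the reference annotation.

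From the counts of the 7 libraries, genes were kept by edgeR's filter (at least 10 counts, 15 in total), scaled by TMM and tested with edgeR's quasi-likelihood test (edgeR 4.0.16, limma 3.58.1, DESeq2 1.42.0, R 4.3.3), 1 coefficient per group and Benjamini-Hochberg adjustment over all genes. Intervals are 95% for each gene, are not adjusted over genes, and cover the modelled spread between tumours. The difference of changes used 14 libraries in 1 fit. List levels are mean log2 CPM with a prior count of 2. With 4 against 3 tumours an exact two-sided permutation test of a single value cannot fall below 0.0571, so the model across genes was used. The detection limit given for a count of 0 covers counting error only. The procedure was tested on simulated data.

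Named genes are list members, genes of the design, and the 10 smallest unadjusted p-values each way (5 for the difference of changes) among genes of at least 1 CPM, without antibody or T cell receptor segments or unnamed models; Igkv14-100 and Ighv1-75 were chosen after their values were seen. Members and lists were chosen with earlier results of these data known. The alternatives were other size factors, no filter, DESeq2, limma on log2 RPKM with a mean of at least 0.5, voom with quality weights, all 20 libraries in the fit, the replicate number as a block, each library left out, and the libraries with acinar RNA (list level above 2 log2 CPM) left out. Leaving out the second library of both groups, and the settings for PARPi+anti-VEGFA over PARPi, were chosen after seeing the data. Ranges over the alternatives for list medians and named genes leave out limma on log2 RPKM, except for Ctsk. Other treatment groups of the study were not analysed here. A few genes that the rule names are not reported here.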

Additional observations from a re-analysis of the deposited data

Results flagged for a closer look

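Values in which 1 of 4 tumours lay far from the other 3 by Dixon's gap test at its 95% limit were looked for in the list levels and named genes, and 10 of 156 groups met it, where chance alone gives about 1 in 20. In the second full combination tumour these were the pancreatic acinar list, at 7.84 log2 CPM against -2.04 to -1.76 in the other 3, the intestinal epithelium list, at -1.43 against -1.99 to -1.92, and Col14a1, at 49.3 CPM against 33.0 to 33.8. The first full combination tumour was low for Selp, at 5.58 CPM against 11.9 to 12.4, and Rundc3a, at 1.04 CPM against 1.39 to 1.45, and high for Cxcl10, at 89.3 CPM against 55.2 to 58.3. The third tumour was high for Kdr, at 39.6 CPM against 31.4 to 32.5, and Cd4, at 51.9 CPM against 32.0 to 34.2, and the fourth for Nrp1, at 67.8 CPM against 58.9 to 59.6. In PARPi+anti-VEGFA the second tumour was high for Phf13, at 39.0 CPM against 35.8 to 36.0. Groups of 3 tumours, PARPi+ICB among them, were not examined this way.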

How the results depend on the processing

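For the full combination against PARPi+ICB, the count of 0 called genes was also found with other size factors (522 at an unadjusted p under 0.05), limma on log2 RPKM (252), voom with quality weights (720), all 20 libraries in the fit (745) and without the tumour with acinar RNA (545). It was 1 without the filter on low counts (Igkv14-100), 5 with DESeq2 (Igkv14-100, Ighv2-5, Ighv1-75, Ighv1-56 and Ctsk), 2 without the second tumour of both groups (Igkv12-98 and Ighv1-77; chosen after seeing the data) and 0 to 2 with each library left out, the 2 being Igkv14-100 and Igkv12-98 without PARPi+ICB tumour 2. The replicate number as a block called 1 gene, Ighv8-12, with 958 unadjusted. With this block the median half-width of the interval for vessel genes was 0.31, beside 0.40 without it. Same-numbered tumours correlated at 0.052, 0.093 and 0.191 in their deviations from the group means, and tumours with different numbers at -0.242 to 0.178. The labels do not say whether same-numbered tumours share a cohort, and so few correlations cannot decide it. For the difference of changes DESeq2 called 29 genes and the other settings run called 0. For PARPi+anti-VEGFA over PARPi, DESeq2 called 681 genes and the 7 libraries alone 92, against 85. Of 106 named genes, 39 changed sign in at least 1 setting, all from estimates that passed no adjusted threshold in edgeR; without PARPi+ICB tumour 3 Chil3 turned to 0.66 and Svep1 to 0.19 on the log2 scale, and over each library left out they ran from -1.24 and -0.14 to those values. The cause was not tested.

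The 2-fold bound held for 93.6% of genes at or above 1 CPM and for 83.6% of all genes tested.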

Other observations

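Proliferation genes and epithelial and mesothelial genes were described by a further pair of lists. In bulk tissue these lists cannot tell ID8 cells from host cells. Among lists of 12 or more genes, proliferation genes had the largest share inside a 1.5-fold change, 12 of 12. Their median half-width of 0.33 was not the narrowest, beside 0.27 for the fibroblast activation list. The median log2 difference was 0.03 (-0.09 to 0.12 over the alternatives). Mki67, the Ki-67 antigen, was at 354, 279.6, 248 and 305 CPM in the full combination and 397, 277 and 267 CPM in PARPi+ICB, with an interval of -0.44 to 0.29. The groups overlapped. The epithelial and mesothelial list had a median of 0.11 (0.03 to 0.18) and 10 of 12 inside 2-fold, with Krt18, a simple epithelial keratin, at -0.32 to 0.27. Krt7, another such keratin, was at 13.7 to 18.3 CPM in the full combination and 11.8 to 13.0 CPM in PARPi+ICB, without overlap, and its log2 difference was 0.38 ± 0.13 (unadjusted p 0.0146; edgeR adjusted p 1.00). Adipocyte genes were higher in all 9 tested, with a median of 0.81 and 2 of 9 inside 2-fold, and a median of 0.25 without the first full combination tumour; the list was at 1.61 to 2.80 log2 CPM in the full combination and 1.26 to 1.70 log2 CPM in PARPi+ICB.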
